A study of Homo sapiens with 9 samples.

Results

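The cullin-RING ligase genes described here are RBX1, CUL1, CUL2, CUL3, CUL4A, CUL5, CUL7, SKP1, SKP2 and NEDD8. The probe sets taken were those of the array whose annotation names one of these 10 genes and no other, 22 of the 22283 probe sets. Of all probe sets, 19065 name a single gene, and these cover 11963 genes. RBX1 and its partners were chosen by the low signal of RBX1 with EZH2 siRNA no.2, so the values of all 10 genes in that contrast are given as a description without a test.

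All arrays came from A673, an established line of Ewing sarcoma cells with the EWS/FLI fusion, and the study's question was what the histone methyltransferase EZH2 contributes to the growth and the undifferentiated state of these tumours. For the siRNA arrays, cells were exposed for 48 hours to 5 nM of a control siRNA (2 arrays) or of EZH2 siRNA no.2 (2 arrays). A further array had 5 nM for 48 hours of an EZH2 siRNA whose title carries no number, called here the unnumbered EZH2 siRNA (1 array). The sources do not say whether it is the same siRNA as no.2. For the drug arrays, cells were kept for 24 hours in 100 nM trichostatin A, or TSA, an inhibitor of histone deacetylases (2 arrays), or in 0.01% of its solvent DMSO (2 arrays). The 9 human U133A arrays therefore form 5 groups of a single cell line, and the DMSO and control siRNA arrays differ in transfection and in hours as well as in solvent.

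Cullin-RING ligases are the largest family of ubiquitin ligases. A cullin forms an elongated scaffold: at its carboxyl end sits a small RING protein, usually RBX1, which recruits the ubiquitin-loaded E2 enzyme, and at its amino end an adaptor such as SKP1 holds an exchangeable substrate receptor such as the F-box protein SKP2. The ligase becomes active when the ubiquitin-like protein NEDD8 is joined to the cullin, a step that the COP9 signalosome reverses. The proteins marked for destruction in this way include cell cycle inhibitors, cyclins and beta-catenin, so these ligases are much studied in growing tumour cells.

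The promoters of RBX1 and NEDD8 are shown because these genes had the lowest log2 differences of the 10 between TSA and DMSO. The 250 bases before the annotated start were matched for 9 of the 10 genes in the RefSeq promoter table used here (build GRCh38.p14), and both windows are printed 5′ to 3′ on the strand of the gene. Capitals mark the letters GGGCGG, the GC box bound by SP1-type factors, and CCGGAAG, an ETS-type motif of the factor family to which FLI1 belongs, on either strand.
RBX1, chr22:40951128-40951377, plus strand: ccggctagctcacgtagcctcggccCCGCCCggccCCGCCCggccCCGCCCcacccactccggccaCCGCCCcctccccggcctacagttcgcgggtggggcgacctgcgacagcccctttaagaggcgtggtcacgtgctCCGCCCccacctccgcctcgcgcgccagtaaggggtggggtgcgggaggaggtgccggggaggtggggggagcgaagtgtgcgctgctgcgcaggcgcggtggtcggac
NEDD8, chr14:24232368-24232617, minus strand: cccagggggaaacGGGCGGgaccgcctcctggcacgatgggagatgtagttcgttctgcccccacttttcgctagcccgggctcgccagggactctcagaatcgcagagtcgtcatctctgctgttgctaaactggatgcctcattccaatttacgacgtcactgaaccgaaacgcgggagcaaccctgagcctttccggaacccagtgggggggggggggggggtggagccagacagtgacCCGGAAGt
The RBX1 window had a GC content of 76.8% with 30 CpG dinucleotides, and the NEDD8 window 62.0% with 17, against medians of 58.0% and 11 over 27305 promoters. The GC box letters occurred in 6 of the 9 windows (RBX1, CUL3, CUL5, SKP1, SKP2 and NEDD8) and in 42.3% of all promoters. The letters CCGGAAG occurred in SKP1 and NEDD8 and in 8.82% of all promoters. The letters GGAAGGAA, a short GGAA repeat that can overlap CCGGAAG by its first 5 letters, occurred in SKP2 alone of the 9 and in 2.99% of all promoters. A match describes the letters and is not evidence of binding.

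Each value below is a MAS5 signal, Affymetrix's summary of the brightness of the probes in a probe set on a linear scale. Median signals ran from 125 to 159 per array, and the number of arrays limits the precision. EZH2, the target of the siRNAs, lay at 1130.1 and 1172 with the control siRNA, at 572 and 271 with EZH2 siRNA no.2 and at 681 for the unnumbered EZH2 siRNA, in the direction the labels imply. Its signal with DMSO was 990.1 and 861, and with TSA 1257 and 1055. Markers of a Ewing line were present, with 7 of 7 measured markers past the filter on low signal, whereas 3 of 12 markers of other cell types passed it (CD3E, PECAM1 and DCN, with mean signals of 99.9, 112 and 402). The replicates are titled biological, but the sources do not name separate cultures, and a p-value here measures no more than the spread between these samples.

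RBX1, the RING subunit of most cullins (CUL5 usually takes RNF7), was lower in both EZH2 siRNA groups and with TSA than in the matching controls. Its only probe set (218117_at) gave signals of 4664 and 4076 with the control siRNA, 1909.7 and 1218 for EZH2 siRNA no.2, and 2183 for the unnumbered EZH2 siRNA. Both EZH2 siRNA groups lay below the control siRNA without overlap. Group means were 4370.3 ± 416 (SD, n = 2) for the control siRNA and 1564 ± 489 (n = 2) for EZH2 siRNA no.2, and the latter was 35.8% of the former, while the single array of the unnumbered EZH2 siRNA stood at 49.95%. The log2 fold change was −1.50 (SE 0.31) for EZH2 siRNA no.2 and −0.99 (SE 0.38) for the unnumbered one, and these values share the control arrays. It was the 4th lowest of 9103 genes with EZH2 siRNA no.2, the contrast in which it was noticed. Taken within a replicate number, the difference was −1.28 in replicate 1 and −1.72 in replicate 2. In cultured cells a smaller share of cells with the transcript and less RNA per cell cannot be told apart in such measurements.

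With the drug, RBX1 lay at 4280.2 and 3105 with DMSO and at 1709 and 2869 with TSA. The TSA arrays were both below the DMSO arrays, and the mean with TSA (2289 ± 819.6, SD, n = 2) was 62.0% of that with DMSO (3693 ± 831, n = 2). The log2 fold change was −0.71 (SE 0.31), which did not pass the test (limma adjusted p = 1.00, unadjusted p = 0.0434). The difference was uneven between replicate numbers, at −1.31 in replicate 1 and −0.11 in replicate 2. Leaving out TSA replicate 1 brought the log2 fold change to −0.34, and leaving out DMSO replicate 1 brought it to −0.48, whereas it was −1.08 without TSA replicate 2 and −0.94 without DMSO replicate 2. By group mean RBX1 was highest with the control siRNA, then with DMSO, TSA, the unnumbered EZH2 siRNA and EZH2 siRNA no.2. The ranges of the control siRNA and DMSO overlapped (log2 −0.26, SE 0.31, for DMSO against the control siRNA), the unnumbered EZH2 siRNA lay inside the TSA range, and TSA replicate 1 lay between the arrays of EZH2 siRNA no.2.

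**Figure D1:**
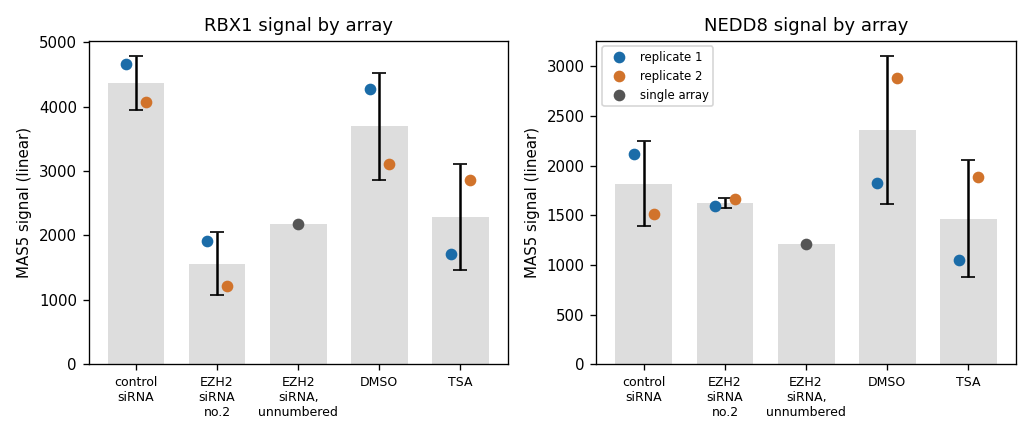
MAS5 signal (linear axis from 0) of RBX1 on the left and NEDD8 on the right in each array, by treatment group; bars are group means, error bars the SD of 2 arrays, and the unnumbered EZH2 siRNA has a single array. RBX1 lies between 4076 and 4664 with the control siRNA and between 1218 and 2183 on the 3 EZH2 siRNA arrays, while the TSA arrays differ from each other more than the control siRNA arrays do.

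Read from the brightest probe set of each gene, the log2 fold changes of the 6 cullin scaffolds with EZH2 siRNA no.2 ran from −0.50 for CUL4A to 0.20 for CUL1. Other probe sets of these genes went beyond this range and are given below. CUL1, the scaffold of the SCF ligases that carry F-box proteins, had signals of 935 and 1040.5 with the control siRNA, 1337 and 970.0 for EZH2 siRNA no.2, and 1247 for the unnumbered EZH2 siRNA. The groups of EZH2 siRNA no.2 and the control overlapped (log2 0.20, SE 0.25). With DMSO the signals of CUL1 were 1253 and 1026 and with TSA 1154 and 1199, and the TSA arrays lay between the DMSO arrays (log2 0.051, SE 0.25, limma adjusted p = 1.00).

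CUL2, which works with elongins B and C and receptors such as VHL, was read by 2 probe sets. The one of higher signal (203079_s_at) gave 518 and 486 with the control siRNA, 667 and 458 for EZH2 siRNA no.2, 656 for the unnumbered EZH2 siRNA, 518 and 536 with DMSO, and 499 and 365 with TSA. Only the TSA arrays lay below their controls, with a log2 fold change of −0.29 (SE 0.28, limma adjusted p = 1.00), and with EZH2 siRNA no.2 the groups overlapped (log2 0.13, SE 0.28). The other probe set (203078_at) was dim, between 65.4 and 121 over the 9 arrays, and its groups overlapped in both comparisons.

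CUL3, the scaffold that binds BTB proteins such as KEAP1, was read by 3 probe sets that did not move alike. The brightest (201371_s_at) gave 3579 and 3771 with the control siRNA, 4161 and 3268 for EZH2 siRNA no.2, 4189 for the unnumbered EZH2 siRNA, 5294 and 3054 with DMSO, and 4476 and 3208 with TSA. These values overlapped in both main comparisons, with log2 fold changes of 0.0054 (SE 0.29) for EZH2 siRNA no.2 and −0.085 (SE 0.29, limma adjusted p = 1.00) for TSA. The probe set 201370_s_at lay higher than the controls without overlap in both, at 229 and 235 with the control siRNA against 380.2 and 288 with EZH2 siRNA no.2, and at 248 and 263 with DMSO against 291 and 296 with TSA. Its log2 fold changes were 0.47 (SE 0.26) and 0.18 (SE 0.26, limma adjusted p = 1.00) in a fit over every probe set. The third, 201372_s_at, had a mean signal of 30.3 and was the single member probe set below the filter of 53.2, so its values are not compared.

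CUL4A, which pairs with DDB1 and DCAF receptors, gave opposite signs in its probe sets. The brighter, 201423_s_at, gave 1178 and 992 with the control siRNA, 1114 and 510.5 for EZH2 siRNA no.2, 959.6 for the unnumbered EZH2 siRNA, 1060.3 and 1113 with DMSO, and 837 and 774 with TSA. With EZH2 siRNA no.2 its low mean came from replicate 2 alone: the log2 fold change was −0.50 (SE 0.33) over both arrays, 0.042 without replicate 2 and −1.05 without replicate 1. With TSA both arrays lay below DMSO, at a log2 fold change of −0.42 (SE 0.33, limma adjusted p = 1.00). The other probe set, 201424_s_at, gave 530.4 and 477 with DMSO and 776 and 639 with TSA, so there both TSA arrays lay above DMSO (log2 0.46, SE 0.33, limma adjusted p = 1.00). Averaged over both probe sets, the CUL4A difference between TSA and DMSO was 0.022. With the siRNAs 201424_s_at gave 343 and 542 for the control, 750.4 and 424 for EZH2 siRNA no.2 and 664 for the unnumbered EZH2 siRNA, with overlap between the groups of 2.

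CUL5, which also uses elongins and takes SOCS-box receptors, varied little in its brightest probe set (203531_at). That probe set gave 2293 and 2342 with the control siRNA, 2292 and 1769 for EZH2 siRNA no.2, 2336 for the unnumbered EZH2 siRNA, 2347 and 2249 with DMSO, and 2668 and 2166 with TSA. EZH2 siRNA no.2 lay below its control without overlap, barely so in replicate 1 (log2 −0.20, SE 0.24), and the TSA and DMSO arrays overlapped (log2 0.065, SE 0.24, limma adjusted p = 1.00). The dimmest probe set, 203533_s_at, gave 167 and 251 with the control siRNA against 99.3 and 144 with EZH2 siRNA no.2 (log2 −0.67, SE 0.35), with 183 for the unnumbered EZH2 siRNA. It gave 159 and 241 with DMSO and 160.3 and 242 with TSA, nearly the same pair of values. The probe set 203532_x_at lay between 267 and 433 over all arrays and overlapped in both comparisons.

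CUL7, a scaffold found with the F-box protein FBXW8, differed more between single arrays than between groups. Its brighter probe set (36084_at) gave 567 and 588 with the control siRNA, 719 and 498 for EZH2 siRNA no.2, 636 for the unnumbered EZH2 siRNA, 939 and 722 with DMSO, and 1177 and 546 with TSA. The TSA arrays lay on either side of the DMSO arrays, with a difference of 0.32 in replicate 1 and −0.39 in replicate 2, so the log2 fold change of −0.035 (SE 0.35, limma adjusted p = 1.00) averages opposite values. Both DMSO arrays lay above both control siRNA arrays (log2 0.49, SE 0.35). The probe set 203558_at spread even more widely, from 61.4 on the control siRNA array of replicate 2 to 593 on the TSA array of replicate 1. It gave 188 and 61.4 with the control siRNA and 197 and 232 with EZH2 siRNA no.2, higher without overlap (log2 0.82, SE 0.58). The DMSO arrays, at 349 and 223, also lay above the control siRNA arrays (log2 1.17, SE 0.58).

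**Figure D2:**
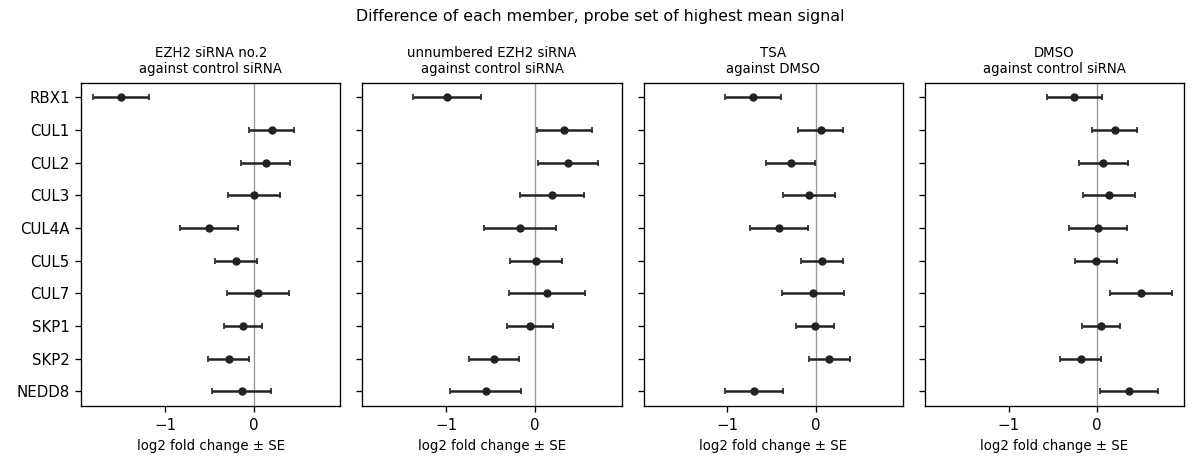
Log2 fold change (horizontal axis) of the 10 genes in 4 comparisons, each gene by its probe set of highest mean signal; bars are the SE of the fit over 9 arrays. RBX1 lies at −1.50 and −0.99 in the EZH2 siRNA comparisons, which share the control arrays, and at −0.71 with TSA, where NEDD8 lies at −0.70, while the 6 cullins lie between −0.50 and 0.49.

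The adaptor SKP1, which joins CUL1 to F-box proteins, was read by 4 probe sets, of which 3 overlapped between TSA and DMSO. The brightest (200718_s_at) gave 11469 and 9796 with the control siRNA, 8883 and 10700.1 for EZH2 siRNA no.2, 10231 for the unnumbered EZH2 siRNA, 11331 and 10518 with DMSO, and 10277 and 11440 with TSA. All of these groups overlapped, and the log2 fold changes were −0.12 (SE 0.21) for EZH2 siRNA no.2 and −0.0098 (SE 0.21, limma adjusted p = 1.00) for TSA. The probe set 207974_s_at lay lower without overlap in both: 4693 and 5015 with the control siRNA, 3061 and 3889 for EZH2 siRNA no.2, 4305 for the unnumbered EZH2 siRNA, 4545 and 4239 with DMSO, and 3640.4 and 3899 with TSA. Its log2 fold changes were −0.49 (SE 0.22) and −0.22 (SE 0.22, limma adjusted p = 1.00). The probe set 200711_s_at was also lower with EZH2 siRNA no.2 without overlap (2695 and 2652 against 2935 and 2803, log2 −0.10, SE 0.22), lay higher on the unnumbered EZH2 siRNA array (3056), and overlapped between TSA and DMSO. The probe set 200719_at ran from 337 to 588 over the 9 arrays, with overlap in both comparisons.

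SKP2, the F-box receptor that brings the cell cycle inhibitor p27 (CDKN1B) to the ligase, differed between its probe sets as well. The brightest, 203625_x_at, gave 3804 and 3987 with the control siRNA, 3191 and 3191 for EZH2 siRNA no.2, 2818 for the unnumbered EZH2 siRNA, 2959 and 3946 with DMSO, and 3718 and 3873 with TSA. The suffix x marks probes that can also bind other transcripts. The 3 EZH2 siRNA arrays lay below both control arrays, at log2 fold changes of −0.29 (SE 0.23) for no.2 and −0.46 (SE 0.28) for the unnumbered EZH2 siRNA, whereas TSA and DMSO overlapped (log2 0.15, SE 0.23, limma adjusted p = 1.00). A second probe set, 210567_s_at, was also lower with EZH2 siRNA no.2 (1079 and 600.4) than with the control siRNA (1140.0 and 1313), and it was 707 for the unnumbered EZH2 siRNA. It gave 1071 and 646 with DMSO and 1103 and 514 with TSA, which overlapped.

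The third SKP2 probe set, 203626_s_at, followed the replicate number more than the treatment. It gave 1472 and 825 with the control siRNA, 1544 and 534 for EZH2 siRNA no.2, 974 and 639 with DMSO, and 1422 and 386 with TSA, each time with replicate 1 first, and 808 on the single array of the unnumbered EZH2 siRNA. Replicate 1 was higher in 4 of 4 groups, by 0.82, 1.49, 0.59 and 1.82 on the log2 scale. A term for the replicate number beside the group means, added after these values had been seen and fitted to the 8 numbered arrays, gave a log2 difference of 1.18 (SE 0.22, limma adjusted p = 0.0293 over 13671 probe sets). Of these, 200 (1.46%) passed the same test, and this was the only one of the 21 member probe sets past the filter to do so. The call was lost without EZH2 siRNA no.2 replicate 1 (adjusted p = 0.152) or replicate 2 (0.155), DMSO replicate 1 (0.0514) or replicate 2 (0.0549), TSA replicate 1 (0.0673) or replicate 2 (0.0700), and with no filter on low signals (0.111, limma), and it was kept without either control siRNA array (0.0391 and 0.0412).

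Some measures of the arrays moved with the replicate number too. The spiked hybridisation controls had mean log2 signals of 9.90 to 10.23 on the replicate 1 arrays and 10.49 to 10.59 on the replicate 2 arrays. The single array of the unnumbered EZH2 siRNA had 9.89, and its control siRNA arrays had 10.23 and 10.58. The ratio of 3′ to 5′ signal of ACTB was higher on replicate 2 in 4 of 4 groups, at 1.28 against 1.03 with the control siRNA, 1.24 against 1.04 with EZH2 siRNA no.2, 1.29 against 1.14 with DMSO and 1.44 against 1.25 with TSA. The same ratio of GAPDH did not follow the replicate number. It was higher on replicate 2 with the control siRNA (1.002 against 0.985) and TSA (1.020 against 0.846). With EZH2 siRNA no.2 (0.927 against 1.027) and DMSO (0.968 against 0.997) it was lower. The part of these measures in the SKP2 difference was not tested. The other SKP2 probe sets differed by −0.13 (limma adjusted p = 0.675) and 0.60 (adjusted p = 0.173). Of the 22 member probe sets, 1 was higher in replicate 1 in 4 groups, 10 in 3 groups, 4 in 2 groups and 4 in 1 group. The other 3, CUL5 203533_s_at, SKP1 200719_at and SKP2 203625_x_at, were higher in none. This split was not computed over all probe sets. In the fit by replicate number, 44.9% of the 13671 probe sets had a positive difference.

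**Figure D3:**
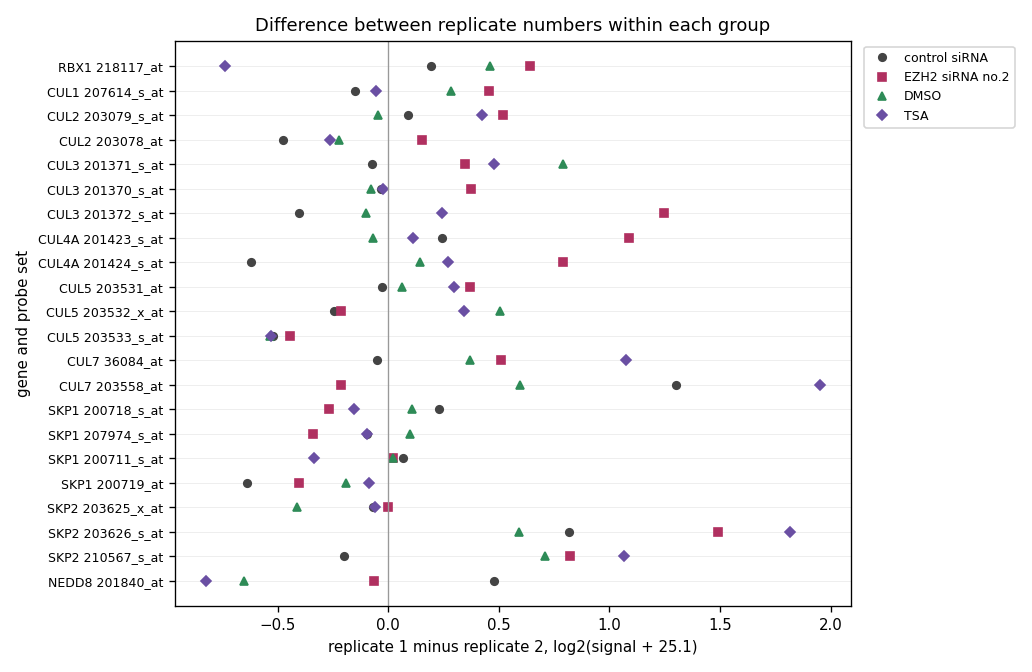
Difference between the arrays of replicate 1 and replicate 2 within each of 4 groups (horizontal axis, log2 of signal plus 25.1) for the 22 member probe sets; the unnumbered EZH2 siRNA has no second array. All 4 groups lie above 0 for SKP2 203626_s_at, from 0.59 to 1.82, and all 4 lie below 0 for CUL5 203533_s_at.

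NEDD8, the ubiquitin-like protein that switches cullins on, was the gene nearest to RBX1 in the TSA comparison. Its only probe set (201840_at) gave 2120.4 and 1517 with the control siRNA, 1591 and 1664 for EZH2 siRNA no.2, 1215 for the unnumbered EZH2 siRNA, 1829 and 2887 with DMSO, and 1051 and 1883 with TSA. The TSA and DMSO ranges overlapped slightly, because TSA replicate 2 exceeded DMSO replicate 1. The log2 fold change of −0.70 (SE 0.33) between TSA and DMSO did not pass the test (limma adjusted p = 1.00, unadjusted p = 0.0556), and within replicate numbers it was −0.79 and −0.61. It was −0.28 without TSA replicate 1, −1.11 without TSA replicate 2, −1.02 without DMSO replicate 1 and −0.37 without DMSO replicate 2. With EZH2 siRNA no.2 the signals lay inside the control range (log2 −0.14, SE 0.33), and the single array of the unnumbered EZH2 siRNA lay below both controls (log2 −0.55, SE 0.40).

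Over the 10 genes, each read from its brightest probe set, the medians of the log2 fold changes lay below 0 in both main comparisons. Those of all genes lay above 0 with the signals as deposited and below 0 with arrays scaled to the same median. With EZH2 siRNA no.2 the median was −0.13 (0.076 over the 9103 genes tested), with 4 positive and 6 negative values (41.5% of all genes negative). There 3 genes (RBX1, CUL5 and SKP2) were lower without overlap, beside 13.1% of all genes, while 0 were higher, beside 22.8%. Of the other member probe sets past the filter, CUL3 201370_s_at and CUL7 203558_at were higher without overlap. CUL5 203533_s_at, SKP1 207974_s_at, SKP1 200711_s_at and SKP2 210567_s_at were lower. The share over all probe sets was not computed. With TSA the median was −0.060 (0.027 over all genes), with 3 positive and 7 negative values (46.3% of all genes negative). RBX1, CUL2 and CUL4A were lower without overlap, beside 13.1% of all genes, and 0 were higher, beside 15.8%. Of the other member probe sets past the filter, CUL3 201370_s_at and CUL4A 201424_s_at were higher with TSA and SKP1 207974_s_at was lower. With the unnumbered EZH2 siRNA, where a single array makes overlap less likely, 4 genes were lower (RBX1, CUL4A, SKP2 and NEDD8), beside 28.2%, and 4 were higher (CUL1, CUL2, CUL3 and CUL7), beside 39.2%. For DMSO against the control siRNA, 0 were lower, beside 12.9%, and CUL7 alone was higher, beside 21.3%. Over all genes, 0.0% had a limma adjusted p under 0.05 in each of these 4 comparisons, and with TSA 0 of the 10 genes did. At an unadjusted p under 0.05 there were 520 of the 9103 genes with EZH2 siRNA no.2, 238 with TSA, 467 for the unnumbered EZH2 siRNA and 418 for DMSO against the control siRNA, and RBX1 was the only one of the 10 to reach it with TSA.

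**Figure D4:**
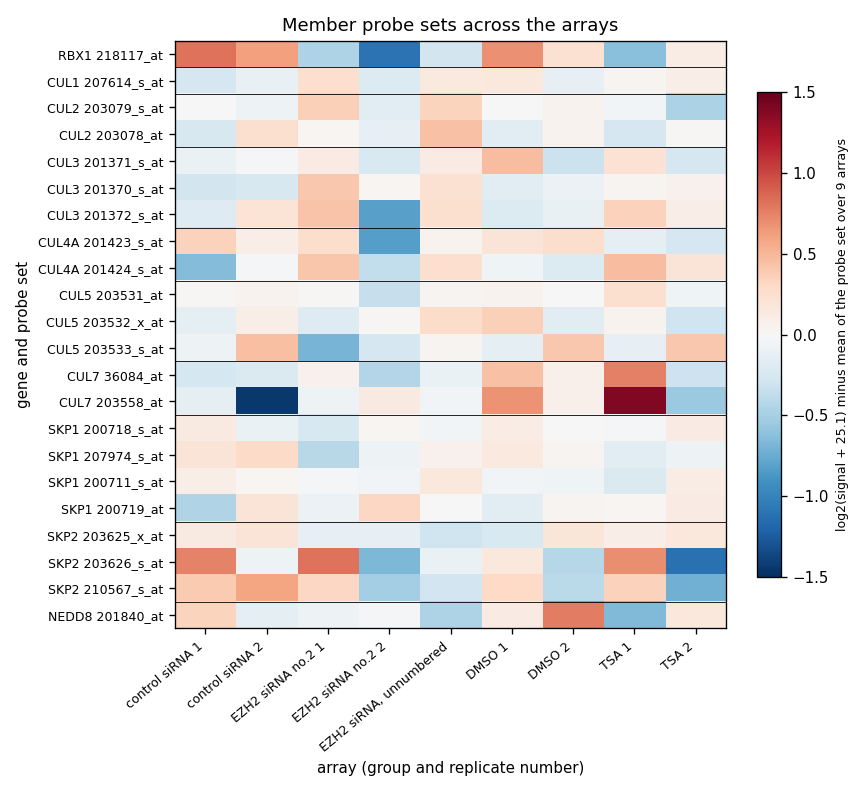
Log2 of signal plus 25.1 of each member probe set (rows, by gene) on each array (columns), relative to that probe set's mean over the 9 arrays; red is above and blue below that mean. The RBX1 row is red on the control siRNA and DMSO arrays and blue on the 3 EZH2 siRNA arrays and TSA replicate 1, while the rows of CUL7 and SKP2 differ between replicates of a group.

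The rest of the system was followed in 73 further genes in 7 lists, of which 62 were tested. With EZH2 siRNA no.2, 35 had positive and 27 negative log2 fold changes, 11 (17.7%) were lower and 11 (17.7%) higher without overlap, beside 13.1% and 22.8% of all genes, and their median was 0.025 beside 0.076 over all genes. With TSA, 32 were positive and 30 negative, 7 (11.3%) were lower and 12 (19.4%) higher without overlap, beside 13.1% and 15.8% of all genes, and the median was 0.0058 beside 0.027. In limma 0 of the 62 had an adjusted p under 0.05 in either comparison, and at an unadjusted p under 0.05 there were 1 (ELOB) with EZH2 siRNA no.2 and 0 with TSA. The genes named from each list are those of smallest unadjusted p, and none passed the threshold.

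The other cullins and the second RING subunit were CUL4B, CUL9 and RNF7. CUL9 had log2 fold changes of −0.39 with EZH2 siRNA no.2 and −0.36 with TSA (each SE 0.42). CUL4B had 0.18 and 0.25 (each SE 0.37). Of the adaptors, ELOB, the elongin B that serves CUL2 and CUL5, gave 2859.7 and 3673 with the control siRNA, 1531 and 2485 for EZH2 siRNA no.2, 1923 for the unnumbered EZH2 siRNA, 3042 and 2879 with DMSO, and 1610.5 and 2867 with TSA. It lay below its controls without overlap in both main comparisons, with log2 fold changes of −0.72 (SE 0.32) and −0.46 (SE 0.32). Its partner ELOC had −0.40 (SE 0.28) with EZH2 siRNA no.2. On the unnumbered EZH2 siRNA array ELOC gave 3020, above both controls (2916 and 2864, log2 0.063). DDB1, the CUL4A adaptor, had 0.29 (SE 0.26) with TSA, where the groups overlapped.

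Of 7 tested genes for neddylation and cullin exchange, 4 were higher without overlap with EZH2 siRNA no.2 (22.8% of all genes) and 0 lower (13.1% of all genes). They included NAE1, a subunit of the enzyme that activates NEDD8, which gave 2626 and 3446 with the control siRNA and 3620 and 4888 with EZH2 siRNA no.2 (log2 0.48, SE 0.29), and DCUN1D1, which helps to join NEDD8 to cullins (log2 0.31, SE 0.24). On the single array of the unnumbered EZH2 siRNA, NAE1 gave 2970, inside the control range (log2 −0.018), and DCUN1D1 had 0.061. Of the 7 genes, 4 were higher and 2 lower than both controls on that array (39.2% and 28.2% of all genes). With TSA, 2 of the 7 were higher without overlap (15.8% of all genes) and 0 lower (13.1% of all genes). CAND1, which exchanges receptors on cullins, gave 893 and 1058 with DMSO and 1559 and 1103 with TSA (log2 0.42, SE 0.27), and DCUN1D1 had 0.25. All 9 subunits of the COP9 signalosome were tested, with medians of 0.010 for EZH2 siRNA no.2 and −0.037 for TSA. Its subunits GPS1 and COPS3 had −0.37 and −0.17 with EZH2 siRNA no.2, and COPS7A and COPS7B had −0.31 and 0.31 with TSA.

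Of the 26 tested substrate receptors, 5 were lower and 5 higher without overlap with EZH2 siRNA no.2 (13.1% and 22.8% of all genes), and 2 were lower and 7 higher with TSA (13.1% and 15.8% of all genes). FBXO7, an F-box protein linked to parkinsonism, gave 2376 and 2412 with the control siRNA and 1904 and 1804 with EZH2 siRNA no.2 (log2 −0.36, SE 0.22), and SOCS2, a receptor of the CUL5 ligases, had −0.68 (SE 0.40). The SOCS2 signals were 155 and 393 with the control siRNA against 153 and 140.0 for no.2, so the control arrays differed from each other more than the lower of them did from the siRNA arrays. SOCS3 had −0.74 (SE 0.41) with TSA, from 131 and 61.5 with DMSO to 52.7 and 37.1 with TSA. Both TSA signals lay under the level of the filter on low signal, so this value rests on dim signals. The control siRNA arrays gave 50.6 and 71.0 for SOCS3. FBXO5, an inhibitor of the anaphase-promoting complex, had 0.40 (SE 0.27) with TSA. Of the E2 enzymes and helpers, UBE2G1 had 0.42 and CDC34, an E2 of the SCF ligases, −0.34 with EZH2 siRNA no.2. CKS1B, which SKP2 needs to bind p27, gave 5130 and 5466 with DMSO and 2475 and 4976 with TSA (log2 −0.59, SE 0.32), both arrays lower. Among 9 transcripts whose proteins are substrates, CDKN1A, the inhibitor p21, had 0.42 with EZH2 siRNA no.2 and 0.46 with TSA (each SE 0.28). CCNE1 had −0.28 (SE 0.30) with EZH2 siRNA no.2. Both genes overlapped between EZH2 siRNA no.2 and the control siRNA. On the unnumbered EZH2 siRNA array their signs were opposite, at −0.22 for CDKN1A and 0.49 for CCNE1. CDKN1B had 0.64 (SE 0.39) with TSA, from 854 and 1003 to 2176 and 977. These are transcript levels and do not measure how much protein was degraded.

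**Figure D5:**
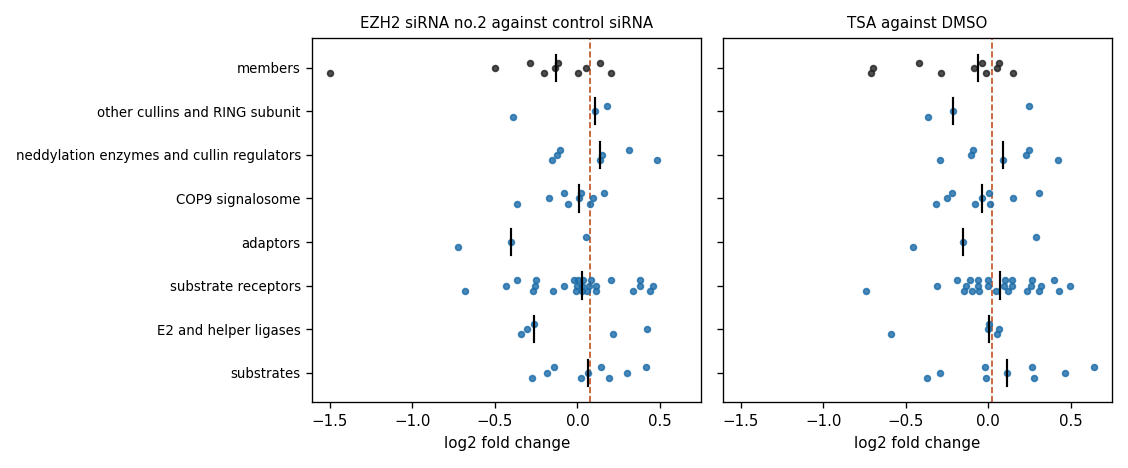
Log2 fold changes (horizontal axis) of the 10 members and of the tested genes of 7 lists, for EZH2 siRNA no.2 on the left and TSA on the right; each point is a gene, black bars are list medians, and the dashed line is the median of all 9103 genes (0.076 and 0.027). RBX1 is the point at −1.50 in the upper row on the left, and the medians of the 7 lists lie between −0.40 and 0.14 there.

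Across the 9 arrays the genes whose log2 signals went most closely with RBX1 were RANGRF (Pearson r = 0.98), PPP1R1A (0.96), NDUFS7 (0.94), SNRNP25 (0.94) and VAPB (0.92). The median over 9093 genes was −0.12 and the 99th percentile 0.79. RANGRF gave 874 and 709.8 with the control siRNA, 412 and 314 for EZH2 siRNA no.2, 538 for the unnumbered EZH2 siRNA, 915 and 623 with DMSO, and 380.1 and 603 with TSA, so it too was low on the EZH2 siRNA arrays and lower on TSA replicate 1 than on replicate 2. Of the other members, each read from its brightest probe set, CUL4A had r = 0.71 with RBX1, NEDD8 0.47, SKP1 0.39 and CUL5 0.36. SKP2 had 0.34, CUL3 0.11, CUL7 −0.02, CUL2 −0.10 and CUL1 −0.15. The dimmer CUL4A probe set, which was higher with TSA where RBX1 was lower, was not correlated with RBX1. These correlations describe 9 arrays in 5 groups, which share treatments and replicate numbers, and carry no test.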

How the data were processed

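RNA of A673 cells was measured on 9 Affymetrix U133A arrays. The values are deposited intensity signals that the authors computed with MAS5, per the submitters' processing notes; its version and scaling are not given in the sources used here, and each array had a trimmed mean of 500.1 to 500.2. Detection calls were not used.

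Signals were analysed as log2(signal + 25.1), the pseudocount being the 20th percentile of all values. Of 22283 probe sets, 68 are controls, 1043 name several genes and 2107 none, and only those of a single gene were tested. Probe sets with a mean signal under the 30th percentile (53.2) were dropped, leaving 13671, and a gene was read from its brightest probe set by mean, leaving 9103 genes. A model of group means over the 9 arrays was fitted in limma 3.58.1, R 4.3.3 (eBayes with trend, 4 residual and 7.39 prior degrees of freedom). Tests were two-sided with Benjamini-Hochberg adjustment over all genes, at a threshold of 0.05. The single array of the unnumbered EZH2 siRNA was assumed to vary like the other groups. Groups do not overlap where every array of one lies above every array of the other. The fit was tested on simulated data.

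The members and the lists of further genes were chosen with earlier results of these data known. All members were named with every probe set, and from each list the genes past the threshold or, failing that, the pair of smallest unadjusted p in each main comparison. Genes most like RBX1 were the 5 of highest Pearson r. Alternatives were other pseudocounts (5.42 and 87.2), filters, normalizations, probe set rules and fits. A replicate block, a block by the signal of the hybridisation controls, and fits without each array were also run. The test of the replicate number and the 3 EZH2 siRNA arrays as a single group were added once values were known.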

Additional observations from a re-analysis of the deposited data

How the results depend on the processing

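In limma, 0 genes passed the threshold in each of the 4 comparisons under every alternative run, and the lowest adjusted p of any gene was 0.200 (unnumbered EZH2 siRNA, without TSA replicate 2). The replicate block also gave 0 genes past the threshold, with 808 genes at an unadjusted p under 0.05 for EZH2 siRNA no.2 (520 without it), 414 for TSA (238) and 669 for DMSO against the control siRNA (418). Differences between replicates correlated across groups at 0.054 to 0.38 over 6 pairs of groups, and the first principal component (24.2% of the variance) separated the replicate numbers. Scaling the arrays to the same median moved the median of all genes with EZH2 siRNA no.2 from 0.076 to −0.058, and RBX1 then had −1.64. With TSA the same scaling moved the median of all genes from 0.027 to −0.045. Quantile normalization brought these medians to 0.021 with EZH2 siRNA no.2 and −0.0028 with TSA. Leaving out single arrays moved RBX1 between −1.82 and −1.18 with EZH2 siRNA no.2. With EZH2 siRNA no.2, CUL4A turned to 0.042 without replicate 2 and was −1.05 without replicate 1, and it turned to 0.022 with TSA for the mean of its probe sets. Of 830 values of members under alternatives, 51 changed sign, and the 2 CUL4A values above were the only ones of these whose reported log2 fold change was larger than its SE. Of the 610 values outside the EZH2 siRNA no.2 comparison, 0 had an adjusted p under 0.05. The count of 200 probe sets that differed by replicate number became 130 with the pseudocount of 5.42, 0 with no filter (2958 at an unadjusted p under 0.05), 301 with arrays scaled to the same median and 54 with 1 probe set per gene, and it ran from 2 to 161 with single arrays left out. The cause of these changes was not tested.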
